A study of Caenorhabditis elegans with 82 samples.

Results

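The 9 genes described here, dao-3, mel-32, dhfr-1, tyms-1, folt-1, folt-2, alh-3, gldc-1 and gcst-1, encode C. elegans proteins of folate uptake, folate one-carbon metabolism and glycine cleavage. They were chosen by name, with earlier results of these data known, and all 9 were found among the 46748 genes of the count table. Whole worms of the wild-type laboratory strain N2 were sequenced for RNA after growth on 1 of 4 bacterial diets at 20C. MYb71 is an isolate of Ochrobactrum anthropi from the gut microbiota of the worm, MYb65 is the label of a second Ochrobactrum isolate, Mix is a mixture of MYb65 and MYb71, and OP50 is the E. coli strain fed in laboratories. The methods of the study name its second isolate MYb237, and the sources used here do not say whether MYb65 and MYb237 are the same, so values on MYb65 and Mix are those of the labels. Worms of each diet were taken at 6 stages, the larval stages L2, L3 and L4 (6, 24 and 48 h on the bacteria) and adulthood, sampled as Ad1 (72 h), Ad3 (3 days) and Ad7 (7 days). By the methods of the study, worms had been kept on the bacteria of the experiment for generations beforehand. The hours thus do not count from a first exposure to the diet. Each library comes from many pooled hermaphrodites, which carry no transgene, and replicates are independent runs of the exposure. Larvae were washed from plates and adults were picked by hand, so handling and stage cannot be told apart.

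Folate carries one-carbon units for the synthesis of thymidylate, purines and methionine, and animals cannot make it and take it from bacteria. Serine hydroxymethyltransferase and the glycine cleavage system load folate with units from serine and glycine, and dihydrofolate reductase returns the oxidized form that thymidylate synthase leaves behind. In C. elegans this metabolism is known to depend on the bacterial diet, through folate itself and through vitamin B12, the cofactor of methionine synthase.

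Of 82 libraries in the table, 71 were used for the values below. The study states 3 replicates per group and 2 for MYb237 at L2, 11 groups hold 4 libraries, and the one numbered 3 was left out of these with earlier results of these data known. Total counts on genes in the 71 ranged from 10513060 to 74552875 (median 21700247), and the members had 12 to 51038 counts per library. Levels are given in CPM, read counts scaled to the TMM-normalized total of the library. Of the 71 libraries, 70 were closest to the mean profile of their own stage, and OP50 Ad1 replicate 2 was slightly closer to Ad3. Libraries labelled OP50 replicate 3 stood apart after L3 in acdh-1, a B12-repressed gene of propionate breakdown. No library of the Ochrobactrum diets exceeded 14.2 CPM of acdh-1, while OP50 replicate 3 had 266, 11.4, 13.4 and 18.9 CPM at L4, Ad1, Ad3 and Ad7 and the other OP50 libraries of all stages held 163 to 3307 CPM. In other genes these libraries went with their label in part. argk-1, an arginine kinase, was at most 1.25 CPM in any Ochrobactrum library and had 229, 2.53, 0.961 and 30.1 CPM in these 4 OP50 libraries, which was within the range of the other OP50 libraries at L4 and Ad7 and below them at Ad1 and Ad3. cth-1, a cystathionine gamma-lyase, had at most 23.5, 10.5, 6.58 and 4.65 CPM on the Ochrobactrum diets at L4, Ad1, Ad3 and Ad7, against 284, 19.5, 6.68 and 41.9 CPM in OP50 replicate 3, above every Ochrobactrum library each time. It was again within the range of the other OP50 libraries at L4 and Ad7 and below them at Ad1 and Ad3. Comparisons of the members with OP50 across stages are also given without these libraries, a choice made after their values were seen. In libraries of whole worms, fewer cells of a type and less RNA per cell cannot be told apart.

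Across the 6 stages, 3 of the 9 members were lower on the Ochrobactrum diets than on OP50, folt-2 strongly and dao-3 and mel-32 moderately, and none was higher. The count was 3 of 9 on MYb71, where 2.25% of all genes tested were called lower, 3 of 9 on MYb65 (1.81% of all genes) and 3 of 9 on Mix (1.75% of all genes). These counts come from the quasi-likelihood test of edgeR with stage and diet as terms and Benjamini-Hochberg adjustment over 18238 genes for the isolates and 18364 for Mix, at a threshold of 0.05. The median log2 fold change of the 9 members was −0.17 on MYb71, −0.26 on MYb65 and −0.17 on Mix, and that of all genes was −0.03, −0.00 and −0.02. At an unadjusted p under 0.05, 6, 4 and 3 of 9 members would have passed, where 14.0%, 16.7% and 12.2% of all genes did. Without OP50 replicate 3 at Ad1, Ad3 and Ad7, 4, 3 and 3 members passed, with alh-3 added on MYb71. The 3 comparisons share the OP50 libraries, so they are not independent of each other. The model held no term for the run, so libraries of different stages entered as independent, which was not tested. The members were chosen with earlier results of these data known, so part of the contrast with all genes may come from that choice.

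**Figure D1:**
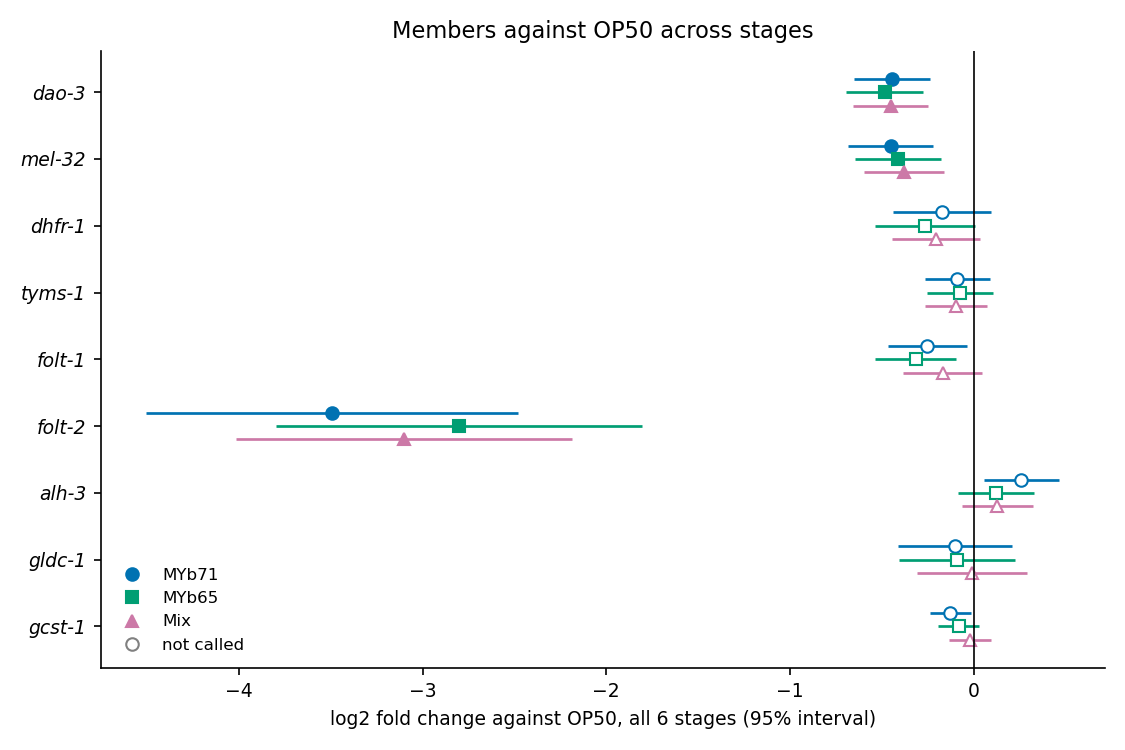
Log2 fold change of each of the 9 members across the 6 stages on MYb71, MYb65 and Mix, each against OP50, with 95% intervals of the edgeR fit as bars and filled points where the adjusted p was under 0.05. folt-2 lies between −3.49 and −2.80, dao-3 and mel-32 lie between −0.49 and −0.38, and the other 6 members lie between −0.32 and 0.26 with open points.

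Among the transporters, folt-2 (WBGene00018138), on chromosome V at 2872465 to 2875600 (minus strand, WBcel235), encodes a putative folate transporter. Across stages its log2 fold change was −3.49 ± 0.52 (SE) on MYb71 (adjusted p = 5e-06 by edgeR), 11.3-fold lower than on OP50. On MYb65 it was −2.80 ± 0.51 (adjusted p = 2e-04, 6.97-fold lower), and on Mix −3.10 ± 0.47 (adjusted p = 1.9e-06, 8.57-fold lower). Leaving out each MYb71, MYb65 or OP50 library of the fit in turn gave −3.60 to −3.33 on MYb71 and −2.94 to −2.63 on MYb65, and leaving out each Mix or OP50 library in turn gave −3.22 to −2.91 on Mix, all with an adjusted p under 0.05. Without a whole replicate number the call on MYb65 was lost in 2 of 4 fits, without number 1 (−2.62, adjusted p = 0.070 by edgeR) and number 2 (−2.82, adjusted p = 0.061), and those on MYb71 and Mix held in all 4 (adjusted p at most 0.011 and 0.013).

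At L2, folt-2 had 9.05, 10.6 and 10.6 CPM on MYb71, 13.5 and 9.26 CPM on MYb65 and 8.87, 10.998 and 9.15 CPM on Mix, against 96.8, 73.7 and 83.6 CPM on OP50. The libraries of each diet lay close together here and the Ochrobactrum and OP50 ranges did not overlap. At L3 it had 40.2, 17.6 and 11.04 CPM on MYb71, 42.8, 28.1 and 47.3 CPM on MYb65 and 40.5, 53.4 and 35.9 CPM on Mix, against 757, 310 and 119.3 CPM on OP50. At L4 it had 53.1, 22.9 and 77.8 CPM on MYb71, 135, 37.4 and 130 CPM on MYb65 and 64.9, 120 and 2.46 CPM on Mix, against 313, 573 and 175 CPM on OP50. At both of these stages every OP50 library again stood above every Ochrobactrum library, with OP50 libraries several fold apart, and Mix L4 replicate 3 was the lowest library.

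In adults the OP50 libraries split. At Ad1, folt-2 had 1.83, 17.8 and 1.94 CPM on MYb71, 6.96, 48.6 and 1.61 CPM on MYb65 and 38.3, 32.01 and 8.43 CPM on Mix, against 540, 644 and 2.11 CPM on OP50. At Ad3 it had 22.4, 8.16 and 15.2 CPM on MYb71, 49.3, 23.0 and 2.07 CPM on MYb65 and 5.35, 6.42 and 7.74 CPM on Mix, against 136, 127 and 0.549 CPM on OP50. At Ad7 it had 5.56, 4.16 and 7.10 CPM on MYb71, 8.84, 5.50 and 7.01 CPM on MYb65 and 7.97, 9.12 and 8.76 CPM on Mix, against 42.4, 37.5 and 6.69 CPM on OP50. The low OP50 value was that of replicate 3 each time, the library with low acdh-1, and the other OP50 libraries stood above every Ochrobactrum library. Without OP50 replicate 3 at Ad1, Ad3 and Ad7, the log2 fold change across stages was −3.77 on MYb71, −3.08 on MYb65 and −3.38 on Mix, and without that of L4 as well it was −3.86, −3.18 and −3.47. What sets these libraries apart was not tested.

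**Figure D2:**
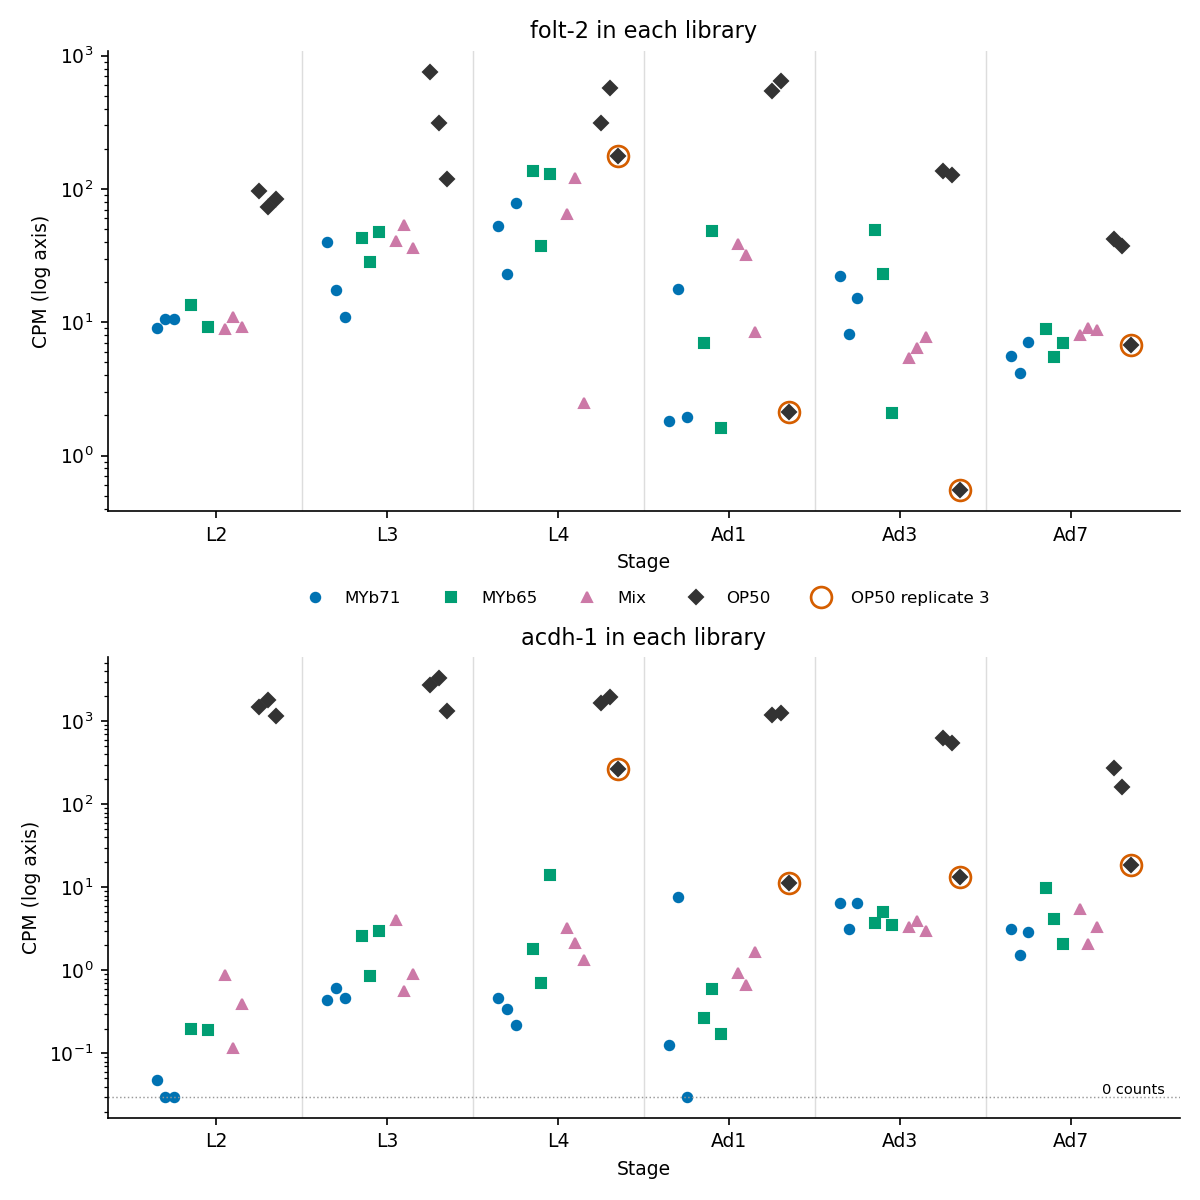
CPM of folt-2 (upper panel) and acdh-1 (lower panel) in each library by stage and diet, on log axes, with orange rings around OP50 replicate 3 at L4, Ad1, Ad3 and Ad7 and with libraries of 0 acdh-1 counts at the dotted line. For folt-2 the ringed libraries lie among the Ochrobactrum libraries at Ad1 and Ad7, at 2.11 and 6.69 CPM, and below all of them at Ad3, at 0.549 CPM, and for acdh-1 they lie below the other OP50 libraries at 11.4, 13.4 and 18.9 CPM.

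Within single stages, folt-2 at L2 was the only call among the members. The log2 fold change there was −3.02 ± 0.20 (SE) on MYb71 (adjusted p = 0.00038 by edgeR), −2.90 ± 0.23 on MYb65 (adjusted p = 0.0019) and −3.10 ± 0.19 on Mix (adjusted p = 2.3e-05). The call on MYb65, where L2 has 2 libraries, was lost with all 82 libraries, although the estimate was −3.32 (adjusted p = 0.10 by edgeR), and without number 1 (−3.14, adjusted p = 0.20) or number 2 (−2.75, adjusted p = 0.42). That on MYb71 was lost without number 2 (−3.11, adjusted p = 0.061), and that on Mix held under each alternative. At L3 the estimates were as large, −3.96, −3.21 and −3.10, but did not pass (adjusted p = 0.086, 0.14 and 0.077). On MYb71, where replicate numbers paired the libraries with those of OP50 at L3, the estimate with the number as a block was −3.81 and passed (adjusted p = 0.0066 by edgeR). Without OP50 L3 replicate 4, the lowest of the OP50 libraries there, the L3 estimates on MYb71 and Mix were −4.37 and −3.50 and passed (adjusted p = 0.031 and 0.016 by edgeR). At Ad7 they were −2.38, −2.03 and −1.76 (adjusted p = 0.18, 0.25 and 0.26). Without OP50 Ad7 replicate 3 they were −2.84 on MYb71, −2.48 on MYb65 and −2.21 on Mix, with adjusted p = 0.0024, 0.0064 and 0.0012 by edgeR. The estimates at L4 (−2.89, −1.91 and −2.54), Ad1 (−5.76, −4.35 and −3.92) and Ad3 (−2.48, −1.78 and −3.72) did not pass by edgeR without a block, with or without the OP50 libraries labelled replicate 3. With a block, Ad1 passed on MYb71 (−6.52, adjusted p = 0.024) and MYb65 (−5.38, adjusted p = 0.041), although with 2 shared numbers each a pairing of these libraries was not shown. In that fit OP50 Ad1 replicate 3 was the only library of its number. The block thus also took this library out of the diet estimate. DESeq2 also called folt-2 at L3 on all 3 diets (adjusted p = 9.9e-08, 5.9e-05 and 2.3e-05), at L4 on MYb71 (−2.81, adjusted p = 0.0044) and at Ad7 on MYb71 (−2.36, adjusted p = 0.028).

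folt-1 (WBGene00007388), on chromosome V at 11141479 to 11143121 (plus strand), encodes the reduced folate carrier of the worm. It shares 171 exonic bases with C06H2.7 on the other strand, and the kit does not mark strand, so reads in that stretch cannot be told apart. Its levels were low, with a mean over stages of 3.98 CPM per kilobase on MYb71, 3.86 on MYb65 and 4.15 on Mix, against 4.83 on OP50. Across stages its log2 fold change was −0.25 ± 0.11 on MYb71, −0.32 ± 0.11 on MYb65 and −0.17 ± 0.11 on Mix (SE), which did not pass (adjusted p = 0.26, 0.12 and 0.59 by edgeR). On MYb65 it was −0.39 without OP50 replicate 3 at L4, Ad1, Ad3 and Ad7, and passed (adjusted p = 0.041). At L2, folt-1 had 9.34, 8.66 and 15.6 CPM on MYb71, 12.5 and 9.71 CPM on MYb65 and 10.8, 12.3 and 10.2 CPM on Mix, against 14.2, 19.9 and 10.8 CPM on OP50. At no stage did the libraries of a diet all lie below or all above those of OP50. Of the 2 transporter genes, folt-2 alone passed, and their difference was not tested.

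dao-3 (WBGene00000929), on chromosome X at 8084210 to 8086550 (minus strand), encodes a bifunctional methylenetetrahydrofolate dehydrogenase and cyclohydrolase, an enzyme that interconverts one-carbon forms of folate. Its log2 fold change across stages was −0.45 ± 0.10 (SE) on MYb71 (adjusted p = 0.0057 by edgeR), −0.49 ± 0.11 on MYb65 (adjusted p = 0.0029) and −0.45 ± 0.10 on Mix (adjusted p = 0.0038). The calls held without each of the 53 libraries of MYb71, MYb65 and OP50 in turn (adjusted p at most 0.014 and 0.0071), and on Mix without each of the 36 Mix and OP50 libraries (at most 0.013). Without a whole replicate number they were lost on MYb71 in 3 of 4 fits (−0.46 to −0.39, adjusted p = 0.061 to 0.13 by edgeR), on MYb65 in 2 (−0.48 and −0.44, adjusted p = 0.12 and 0.076) and on Mix in 1 (−0.34, adjusted p = 0.14). Without OP50 replicate 3 at Ad1, Ad3 and Ad7 the estimates were −0.49, −0.53 and −0.53, and all passed.

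dao-3 stood farthest below OP50 at L3 and L4, and its values at Ad7 overlapped. At L3, dao-3 had 39.1, 81.1 and 63.1 CPM on MYb71, 71.9, 71.3 and 36.9 CPM on MYb65 and 71.4, 33.3 and 41.5 CPM on Mix, against 91.4, 136 and 106.3 CPM on OP50. At L4 it had 22.4, 26.4 and 19.4 CPM on MYb71, 17.6, 25.8 and 19.5 CPM on MYb65 and 28.4, 18.9 and 26.7 CPM on Mix, against 39.3, 58.4 and 28.5 CPM on OP50. The Ochrobactrum and OP50 ranges did not overlap at these 2 stages, although the gap at L4 was narrow, at 28.4 against 28.5 CPM. At L2 it had 48.2 to 58.2 CPM in the 8 Ochrobactrum libraries (median 54.1), against 74.1, 64.7 and 56.5 CPM on OP50. At Ad1 it had 27.3 to 44.1 CPM in the 9 Ochrobactrum libraries, against 48.7, 51.1 and 43.0 CPM on OP50, where MYb71 replicate 2 and MYb65 replicate 4 reached above the lowest OP50 library. At Ad7 it had 51.5 to 63.8 CPM in the 9 Ochrobactrum libraries (median 57.9), against 51.6, 57.4 and 64.2 CPM on OP50. The ranges overlapped slightly at L2 and Ad1 and fully at Ad7. Within single stages the estimate lay between −1.17 (Mix at L3) and 0.04 (Mix at Ad3), and none of the 18 comparisons passed.

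mel-32 (WBGene00003214), on chromosome III at 6440145 to 6443000 (minus strand), encodes serine hydroxymethyltransferase, which passes a one-carbon unit from serine to folate and leaves glycine. Its log2 fold change across stages was −0.45 ± 0.12 (SE) on MYb71 (adjusted p = 0.017 by edgeR), −0.41 ± 0.12 on MYb65 (adjusted p = 0.043) and −0.38 ± 0.11 on Mix (adjusted p = 0.041). The call on MYb71 held without each library in turn (adjusted p at most 0.039). The call on MYb65 was lost without any of 18 of the 53 libraries in its fit (adjusted p = 0.051 to 0.089), and the log2 fold change without any 1 library was −0.46 to −0.37. These were OP50 replicates 1 and 2 at L2, L3 and Ad1, OP50 replicate 1 at Ad3, both MYb65 libraries at L2, the 3 MYb65 libraries at L3, MYb65 replicate 2 at L4, replicates 1 and 4 at Ad1, replicate 4 at Ad3 and replicates 1 and 2 at Ad7. The call on Mix was lost without any of 15 of the 36 Mix and OP50 libraries (adjusted p = 0.052 to 0.097), and the log2 fold change without any 1 library was −0.45 to −0.34. These were OP50 replicates 1 and 2 at L2, L3 and Ad1, OP50 replicate 2 at L4, the 3 Mix libraries at L2, Mix replicates 1 and 3 at L3 and L4, and Mix replicate 2 at Ad7. Without a whole replicate number the mel-32 call was lost in 2 of 4 fits on MYb71, 3 on MYb65 and 2 on Mix (adjusted p up to 0.50, 0.89 and 0.35). Without OP50 replicate 3 at Ad1, Ad3 and Ad7 the estimates were −0.56, −0.52 and −0.51, with adjusted p = 2e-04, 0.00091 and 0.00033 by edgeR.

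At L2, mel-32 had 344, 330 and 237 CPM on MYb71, 299 and 279 CPM on MYb65 and 328, 290 and 274 CPM on Mix, against 639, 508 and 338 CPM on OP50. At L3 it had 337, 287 and 196 CPM on MYb71, 282, 314 and 315 CPM on MYb65 and 326, 357 and 310 CPM on Mix, against 596, 564 and 366 CPM on OP50. The L3 ranges did not overlap, with OP50 replicate 4 only just above the highest Mix library, and at L2 a single MYb71 library stood above the lowest OP50 library. At Ad1 it had 261, 340 and 415 CPM on MYb71, 294, 529 and 234.6 CPM on MYb65 and 596, 494 and 279 CPM on Mix, against 614, 703 and 241 CPM on OP50. The low OP50 library at Ad1 was once more replicate 3. From Ad3 on the values drew together, and at Ad7 the 9 Ochrobactrum libraries held 447 to 516 CPM (median 469), against 491, 515 and 453 CPM on OP50. Within single stages no mel-32 comparison passed by edgeR, with the smallest adjusted p at 0.19 for Mix at L2, where DESeq2 called it (−0.68, adjusted p = 0.032). Without replicate number 4, mel-32 passed at L2 on MYb71, MYb65 and Mix (−0.69, −0.93 and −0.85, adjusted p = 0.0058, 0.0026 and 0.0078 by edgeR) and at L3 on Mix (−0.70, adjusted p = 0.027). At L2, where the numbers of MYb71 and OP50 libraries paired them, the estimate on MYb71 was −0.63 with the replicate number as a block and passed (adjusted p = 0.031 by edgeR).

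**Figure D3:**
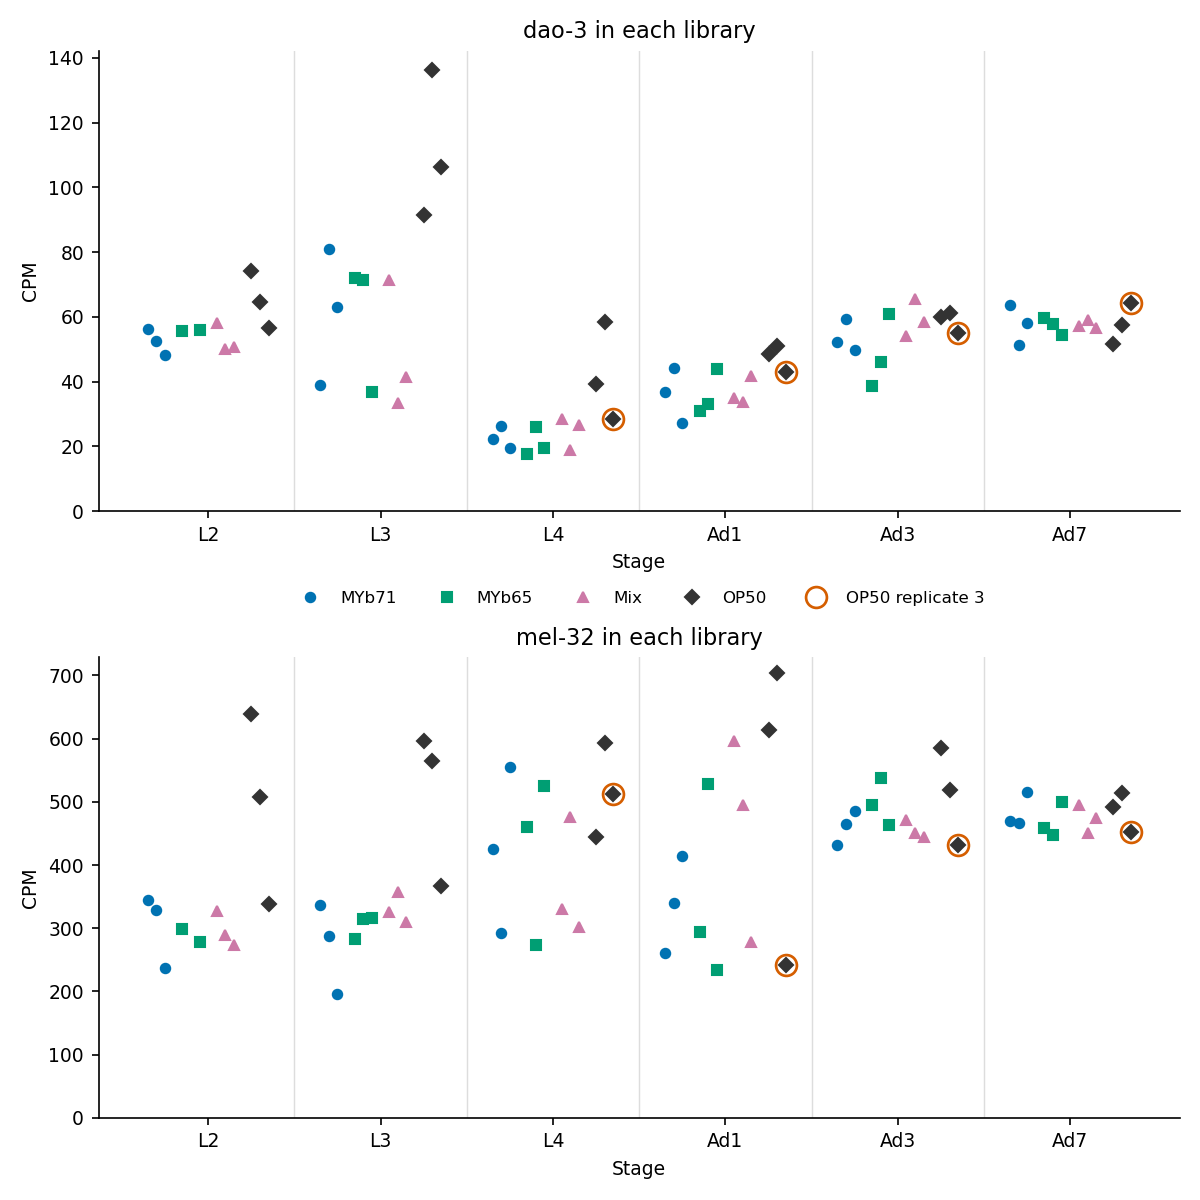
CPM of dao-3 (upper panel) and mel-32 (lower panel) in each library by stage and diet, with orange rings around OP50 replicate 3 at L4, Ad1, Ad3 and Ad7. For dao-3 the OP50 libraries lie above all others at L3 and L4 and among them at Ad7, and for mel-32 they lie above all others at L3.

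The enzymes of thymidylate synthesis showed no call against OP50 in the 71 libraries. dhfr-1 (WBGene00007974) encodes dihydrofolate reductase and tyms-1 (WBGene00022455) thymidylate synthase, and both lie on chromosome I. tyms-1 shares 41 exonic bases with Y110A7A.24 on the other strand, so reads in that stretch cannot be told apart. The log2 fold change of dhfr-1 across stages was −0.17 ± 0.14 on MYb71, −0.26 ± 0.14 on MYb65 and −0.21 ± 0.12 on Mix (SE). That of tyms-1 was −0.09 ± 0.09, −0.08 ± 0.09 and −0.10 ± 0.09, with 95% intervals of −0.26 to 0.09 on MYb71, −0.25 to 0.10 on MYb65 and −0.26 to 0.07 on Mix. For dhfr-1 the intervals were wider and reached down to −0.44, −0.53 and −0.45. With all 82 libraries dhfr-1 was called on Mix (−0.49, adjusted p = 0.027 by edgeR) and tyms-1 on MYb71 (−0.41, adjusted p = 0.048) and Mix (−0.43, adjusted p = 0.033), a setting that holds the OP50 libraries labelled replicate 3 at L2 and L3, whose profiles were closest to adults. Without OP50 replicate 3 at Ad1, Ad3 and Ad7 neither passed, with dhfr-1 at −0.23, −0.33 and −0.29 and tyms-1 at −0.14, −0.13 and −0.17.

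At Ad7, tyms-1 had 113, 119.1 and 126 CPM on MYb71, 116, 120 and 130 CPM on MYb65 and 124, 117 and 114 CPM on Mix, against 145, 132 and 123 CPM on OP50, and the ranges overlapped. At L2, tyms-1 had 44.6, 43.1 and 46.9 CPM on MYb71, 44.3 and 43.1 CPM on MYb65 and 48.3, 46.4 and 46.8 CPM on Mix, against 63.2, 47.3 and 38.3 CPM on OP50. The OP50 libraries enclosed all others there. At L4, dhfr-1 had 33.5, 15.9 and 28.8 CPM on MYb71, 24.8, 19.4 and 25.9 CPM on MYb65 and 16.1, 31.3 and 25.3 CPM on Mix, against 77.1, 12.8 and 22.4 CPM on OP50. OP50 L4 replicate 1 stood far above all other libraries of that stage, OP50 replicate 2 stood below all, and OP50 replicate 3 stood among those of the Ochrobactrum diets. At L3, dhfr-1 had 7.65, 6.90 and 16.0 CPM on MYb71, 7.38, 7.47 and 7.57 CPM on MYb65 and 8.23, 8.58 and 8.85 CPM on Mix, against 9.59, 9.195 and 11.4 CPM on OP50. Here MYb65 and Mix lay below OP50 without overlap, MYb71 replicate 4 stood above it, and no comparison passed. At L2 on MYb71, dhfr-1 stood at −0.28 (adjusted p = 0.73) and passed without MYb71 L2 replicate 4 (−0.64, adjusted p = 0.034 by edgeR). Without replicate number 4, which at L2 only MYb71 and OP50 have, 3 more members passed on MYb71 at L2 by edgeR. These were dhfr-1 (−0.59, adjusted p = 0.016), folt-1 (−0.85, 0.037) and gldc-1 (1.06, 0.021).

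alh-3 (WBGene00000109), on chromosome IV at 11022603 to 11025870 (plus strand), encodes a predicted 10-formyltetrahydrofolate dehydrogenase, which would release the one-carbon unit as CO2 and free folate. It was the member whose estimates lay above 0 on all 3 diets, at 0.26 ± 0.10 on MYb71, 0.12 ± 0.11 on MYb65 and 0.13 ± 0.10 on Mix (SE), and none passed (adjusted p = 0.21, 0.62 and 0.68 by edgeR). On MYb71 the estimate was 0.33 without OP50 Ad1 replicate 3 alone (adjusted p = 0.041) and 0.34 without OP50 replicate 3 at Ad1, Ad3 and Ad7 (adjusted p = 0.039). At Ad1, alh-3 had 209, 233.8 and 177 CPM on MYb71, 193, 131 and 208 CPM on MYb65 and 147, 142 and 219 CPM on Mix, against 112, 133 and 281 CPM on OP50. OP50 replicate 3 was the highest library there and the other OP50 libraries were among the lowest. At Ad3 it had 97.3, 101 and 105 CPM on MYb71, against 86.2, 95.9 and 90.6 CPM on OP50, which did not overlap.

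gldc-1 (WBGene00020022), on chromosome II at 6050420 to 6054307 (plus strand), and gcst-1 (WBGene00017765), on chromosome V at 5712928 to 5714737 (plus strand), encode the P protein, which removes the carboxyl group of glycine, and the T protein, which hands the remaining carbon to folate. Neither passed against OP50 across stages on any diet, also without OP50 replicate 3 at Ad1, Ad3 and Ad7 (smallest adjusted p = 0.11, for gcst-1 on MYb71 by edgeR). The log2 fold change of gldc-1 across stages was −0.10 ± 0.16 on MYb71, −0.09 ± 0.16 on MYb65 and −0.01 ± 0.15 on Mix (SE). That of gcst-1 was −0.13 ± 0.06, −0.08 ± 0.06 and −0.02 ± 0.06, the smallest errors of the 9 members. Its 95% intervals were −0.24 to −0.02 on MYb71, −0.20 to 0.03 on MYb65 and −0.13 to 0.09 on Mix.

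For gldc-1 the libraries of MYb71 lay on different sides of OP50 at different stages, and the change itself was not tested. At L2 it had 163, 191 and 148 CPM on MYb71, 162 and 111 CPM on MYb65 and 122, 182 and 156 CPM on Mix, against 105, 74.1 and 118 CPM on OP50. Every MYb71 and Mix library lay above every OP50 library there, with log2 fold changes of 0.79 ± 0.24 and 0.65 ± 0.24 that did not pass (adjusted p = 0.27 and 0.49 by edgeR). At Ad1 it had 59.4, 70.9 and 68.7 CPM on MYb71, 69.6, 108 and 39.9 CPM on MYb65 and 127, 124 and 72.7 CPM on Mix, against 103, 150 and 71.1 CPM on OP50. There every MYb71 library lay below every OP50 library. At L4, OP50 replicate 1 had 72.4 CPM and the other OP50 libraries 261 and 263 CPM, while the 9 Ochrobactrum libraries held 98.1 to 303 CPM (median 209).

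gcst-1 overlaps K09H11.9 by 11 bases. At L2 it had 195, 172 and 160 CPM on MYb71, 190 and 174 CPM on MYb65 and 172, 183 and 184 CPM on Mix, against 159, 167 and 142 CPM on OP50. At Ad3 it had 65.0, 68.7 and 71.4 CPM on MYb71, 76.2, 69.7 and 64.1 CPM on MYb65 and 69.0, 70.4 and 72.1 CPM on Mix, against 75.5, 78.2 and 74.4 CPM on OP50. MYb65 and Mix lay above OP50 without overlap at L2, and MYb71 and Mix lay below it without overlap at Ad3 and no comparison passed.

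Over all members and stages, 1 of 54 pairs was called on each diet, folt-2 at L2. The share of all genes called within a stage, in either direction, was small throughout. At L2 it was 0.641% on MYb71, 0.457% on MYb65 and 0.640% on Mix, and at L3 it was 0.309%, 0.422% and 0.584%. At L4 it was 0.0449%, 0.0449% and 0.0316%, at Ad1 0.00668%, 0.00668% and 0.00%, at Ad3 0.0142%, 0.00712% and 0.0706%, and at Ad7 0.343%, 0.204% and 0.476%. At an unadjusted p under 0.05, 10 of 54 pairs on MYb71, 10 on MYb65 and 13 on Mix would have passed, where 6.22%, 5.58% and 5.67% of all pairs of gene and stage did. Pairs in which every library lay below every OP50 library numbered 11 of 54 on MYb71, 10 on MYb65 and 11 on Mix, where 6.12%, 6.95% and 5.83% of all pairs did. Pairs in which every library lay above numbered 3, 1 and 2 of 54, where 4.09%, 5.68% and 4.48% of all pairs did, so those above are not read as a result. Most pairs with every library below were pairs of folt-2, dao-3 or mel-32 in larvae, with 7 on MYb71, 8 on MYb65 and 7 on Mix.

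No member was called between the isolates. Between MYb71 and MYb65 across stages, 0 of 9 members were called by edgeR, where 0.0548% of all genes were called. DESeq2 also called 0, and 0 had an unadjusted p under 0.05, as 3.05% of all genes did. The widest estimate was that of folt-2, −0.69 ± 0.47 (SE), with a 95% interval of −1.62 to 0.24, so an unequal effect of the isolates on folt-2 of up to that size is within the interval. For dao-3 and mel-32 the intervals were −0.17 to 0.25 and −0.27 to 0.19. Mix against the mean of both isolates also gave 0 of 9 calls by edgeR and by DESeq2, and 0 at an unadjusted p under 0.05, where 0.0109% of all genes were called and 3.96% had such an unadjusted p. There folt-2 stood at 0.02 ± 0.38 and the other 8 members between −0.06 and 0.11.

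Whether larvae and adults responded unlike was tested as the mean difference from OP50 at L2, L3 and L4 minus that at Ad1, Ad3 and Ad7. No member passed on MYb71, MYb65 or Mix, where 0.207%, 0.207% and 0.152% of all genes were called by edgeR. At an unadjusted p under 0.05, 2, 1 and 2 members would have passed, as 6.86%, 9.02% and 6.87% of all genes did, and DESeq2 was not run on this contrast. The dao-3 estimates were −0.51 ± 0.19, −0.48 ± 0.20 and −0.63 ± 0.19 (SE), with adjusted p = 0.49, 0.46 and 0.30. The intervals of folt-2 were wide, −1.50 to 1.98 on MYb71, −1.70 to 1.82 on MYb65 and −1.54 to 1.93 on Mix.

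Stage steps gave more calls than diets did, among the members and among all genes. As the shares of all genes below show, the count of members called is not read as particular to them. Averaged over the 4 diets, 24 of 45 steps between successive stages were called by edgeR, 10 higher and 14 lower in the later stage. From L2 to L3, 3 members were higher, against 23.3% of all genes, and 3 lower, against 31.5%. From L3 to L4 it was 3 and 3 (42.7% and 38.1% of all genes), from L4 to Ad1 2 and 4 (30.9% and 32.2%), from Ad1 to Ad3 2 and 3 (16.4% and 33.6%), and from Ad3 to Ad7 0 and 1 (7.10% and 7.96%). With OP50 alone 13 of 45 steps were called, against 28.2% of all steps of all genes, with fewer libraries in each contrast.

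**Figure D4:**
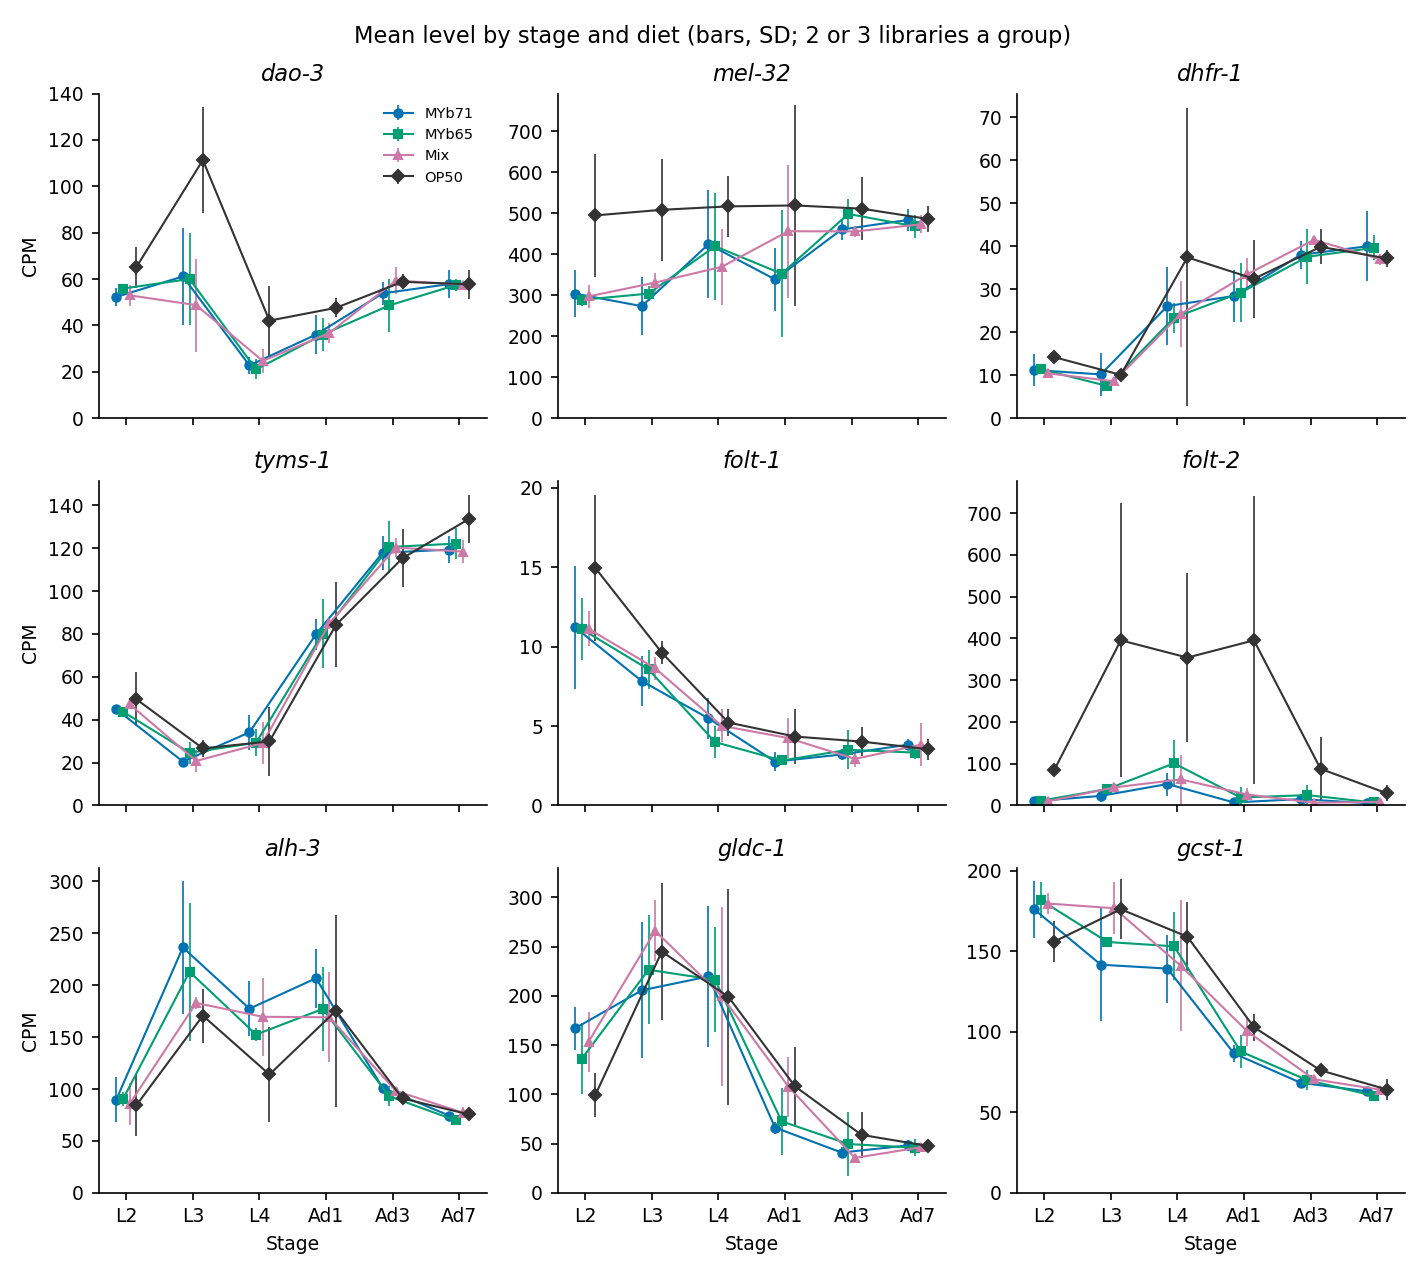
Mean CPM of each member by stage on each diet, with SD over libraries as bars (n = 3, and 2 for MYb65 at L2). tyms-1 and dhfr-1 are lowest at L3 and highest in adults, gldc-1, gcst-1 and folt-1 are highest in larvae, alh-3 is highest at L3 to Ad1, and mel-32 stays within 273 to 519 CPM.

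tyms-1 and dhfr-1 were lowest at L3. tyms-1 was lower at L3 than at L2 by a log2 of −1.01 ± 0.12 (SE, adjusted p = 2.8e-10 by edgeR), and higher at L4 than at L3 by 0.41 ± 0.11, at Ad1 than at L4 by 1.43 ± 0.12 and at Ad3 than at Ad1 by 0.53 ± 0.11. On OP50 it had 49.6 ± 13, 26.6 ± 3.9 and 29.9 ± 16 CPM at L2, L3 and L4, and 84.2 ± 20, 115.3 ± 13 and 134 ± 11 CPM at Ad1, Ad3 and Ad7 (SD, n = 3). dhfr-1 was lower at L3 than at L2 by −0.38 ± 0.17 (adjusted p = 0.046) and higher at L4 than at L3 by 1.60 ± 0.16 (adjusted p = 1.2e-12), and did not pass at later steps. Adult hermaphrodites carry a germ line and embryos, which replicate DNA. The summed level of 6 germline markers on all diets together was 35.1 to 62.4 CPM at L2, 199 to 493 CPM at L3, 947 to 1971 CPM at L4, 848 to 1800 CPM at Ad1, 1456 to 1917 CPM at Ad3 and 1643 to 1902 CPM at Ad7, and the part of these cells in the steps was not tested.

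gldc-1 and gcst-1 were both lower in adults. gldc-1 was higher at L3 than at L2 by 0.78 ± 0.19 (SE), and lower at Ad1 than at L4 by −1.27 ± 0.19 (adjusted p = 9.1e-08 by edgeR) and at Ad3 than at Ad1 by −0.93 ± 0.19. gcst-1 was lower at the same adult steps, by −0.65 ± 0.07 and −0.40 ± 0.07 (adjusted p = 5.2e-11 and 1.2e-05). Over the 24 group means of log2 CPM, gldc-1 and gcst-1 correlated with r = 0.93, dhfr-1 and tyms-1 with r = 0.81, and tyms-1 and gldc-1 with r = −0.96. These are descriptions over groups that share stages.

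The remaining members each had a course of their own. dao-3 was lower at L4 than at L3 by −1.33 ± 0.12 (SE, adjusted p = 1.6e-14 by edgeR) and higher at Ad1 than at L4 and at Ad3 than at Ad1, by 0.55 ± 0.12 and 0.50 ± 0.12. alh-3 was higher at L3 than at L2 by 1.19 ± 0.13 and lower at L4 than at L3 (−0.40 ± 0.13), at Ad3 than at Ad1 (−0.92 ± 0.13) and at Ad7 than at Ad3 (−0.37 ± 0.13). folt-1 was lower at each step up to Ad1, by −0.47 ± 0.14, −0.82 ± 0.14 and −0.50 ± 0.14. folt-2 was higher at L3 than at L2 by 1.84 ± 0.59 and lower at Ad1 than at L4 by −1.58 ± 0.55, as averages over the 4 diets. Its OP50 mean did not fall from L4 (354 CPM) to Ad1 (395 CPM, with replicate 3 at 2.11 CPM). Means on MYb71, MYb65 and Mix went from 51.3, 101 and 62.4 CPM to 7.18, 19.1 and 26.3 CPM. The difference between diets at this step was not tested. mel-32 passed at 1 step only, L4 against L3 (0.32 ± 0.14, adjusted p = 0.031), and on OP50 its stage means lay between 486 and 519 CPM. That call was lost without OP50 replicate 3 at Ad1, Ad3 and Ad7 (0.22, adjusted p = 0.080 by edgeR), and the calls of dhfr-1 at L3 and alh-3 at Ad7 were lost with all 82 libraries (adjusted p = 0.15 and 0.074). Without 1 replicate number at a time, the calls of folt-2 were lost in 2 of 4 fits at each of its steps (adjusted p up to 0.20 and 0.15), those of dhfr-1 at L3 and alh-3 at Ad7 in 3 of 4 (up to 0.12 and 0.20) and that of mel-32 in 4 of 4 (up to 0.28). Those of tyms-1 at L4, folt-1 at L3, gldc-1 at L3 and Ad3 and alh-3 at L4 were lost in 1 of 4.

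Next to the members in the pathway, 33 of 37 listed genes were found and tested. Of 8 genes of folate and methyl group metabolism, 4 were lower on each of MYb71, MYb65 and Mix, and none was higher. These were metr-1, the B12-dependent methionine synthase, mtrr-1, the reductase that keeps it active, mthf-1, the methylenetetrahydrofolate reductase that makes its folate substrate, and F25B5.6, a predicted folylpolyglutamate synthase. The log2 fold changes of metr-1 were −1.06 ± 0.19, −1.07 ± 0.19 and −1.06 ± 0.17 (SE), those of mtrr-1 −1.19 ± 0.24, −1.15 ± 0.24 and −1.31 ± 0.22, and those of mthf-1 −1.01 ± 0.17, −0.96 ± 0.18 and −1.01 ± 0.15. F25B5.6 stood at −0.40 ± 0.11, −0.41 ± 0.11 and −0.41 ± 0.10, a size like that of dao-3 and mel-32. At an unadjusted p under 0.05, 4, 5 and 7 of the 8 would have passed, where 14.0%, 16.7% and 12.2% of all genes did. By adjusted p, 2.25%, 1.81% and 1.75% of all genes were called lower. The 8 were chosen with results of these libraries known, so part of the contrast with these shares may come from that choice. The median of the 8 was −0.40 on MYb71, −0.58 on MYb65 and −0.53 on Mix.

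The 3 partners in glycine cleavage did not pass, with 1, 1 and 0 at an unadjusted p under 0.05. For this list and those that follow, the shares of all genes are those given above. dld-1, the L protein, stood at −0.04, 0.03 and 0.05, gcsh-1 at −0.61, −0.49 and −0.24, and gcsh-2 at −0.12, −0.20 and −0.15 on MYb71, MYb65 and Mix, the last 2 being H proteins. Of 4 genes of serine synthesis and use, sptl-1, a subunit of serine palmitoyltransferase, was lower on MYb71 (−0.28 ± 0.08, SE, adjusted p = 0.044 by edgeR) and did not pass on the others (−0.27 and −0.23), and 2, 2 and 3 of the 4 had an unadjusted p under 0.05. Of 7 genes of purine synthesis, paic-1 was lower on MYb71 (−0.38 ± 0.10, adjusted p = 0.027) and MYb65 (−0.41 ± 0.11, adjusted p = 0.020) and did not pass on Mix (−0.31 ± 0.11, adjusted p = 0.11), and 3, 4 and 1 of the 7 had an unadjusted p under 0.05. None of 4 genes of thymidylate and deoxynucleotide synthesis and none of 7 of DNA replication passed by edgeR on any of the diets, and 0 of these had an unadjusted p under 0.05. DESeq2 was not run on the listed genes. K07E3.4, which lies 191 bases from dao-3 on the same strand, did not pass either (0.25 ± 0.13, 0.17 ± 0.13 and 0.29 ± 0.14). This list, like the members, was chosen with results of these libraries known.

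**Figure D5:**
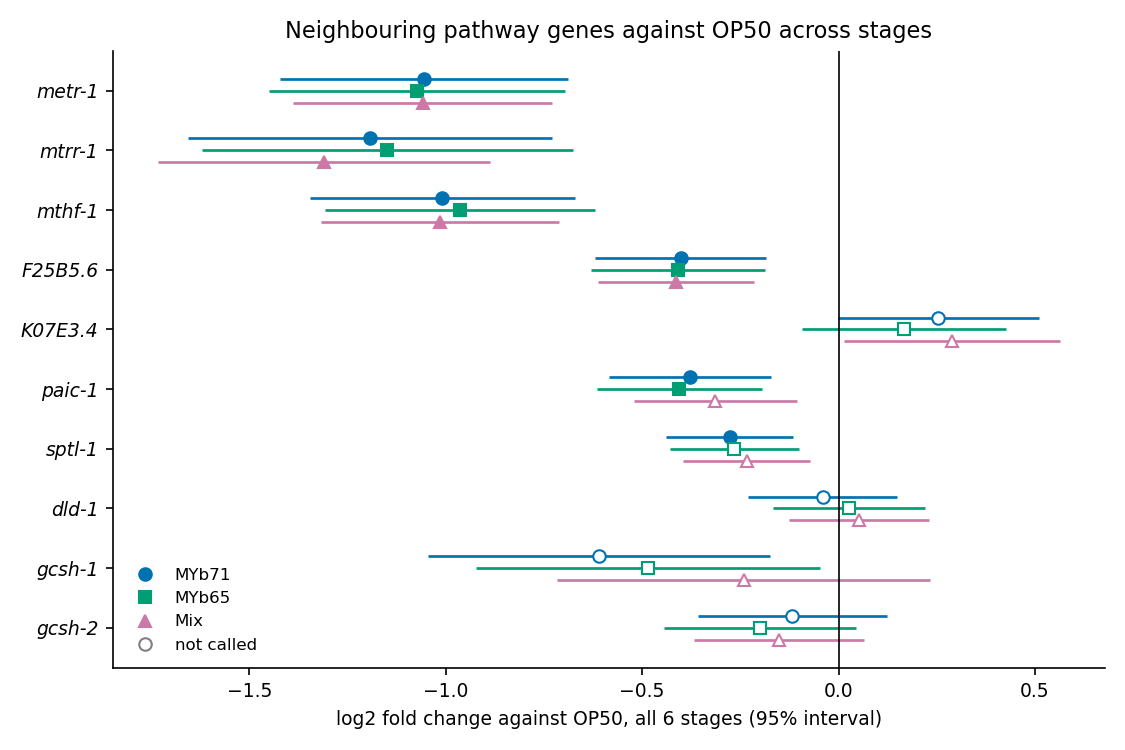
Log2 fold change across stages of 10 pathway genes named in the text on MYb71, MYb65 and Mix against OP50, with 95% intervals of the edgeR fit as bars and open points where the adjusted p was not under 0.05. metr-1, mtrr-1 and mthf-1 lie between −1.31 and −0.96, F25B5.6 lies between −0.41 and −0.40, and the 3 partners in glycine cleavage have open points.

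Levels of the 9 members were compared per kilobase of exon. mel-32 was first on every diet, with a mean over stages of 226 CPM per kilobase on MYb71, 231 on MYb65 and 236 on Mix, against 301 on OP50. folt-1 was last on every diet in these means, although folt-2 was below it at L2 on the Ochrobactrum diets. folt-2 averaged 11.4 CPM per kilobase on MYb71, 20.5 on MYb65 and 15.9 on Mix, eighth on each, against 136 on OP50, where it was second. Its stage means on OP50 were 51.4, 240.1 and 215 CPM per kilobase at L2, L3 and L4 and 240.0, 53.3 and 17.5 at Ad1, Ad3 and Ad7. Its second place on OP50 held at L3, L4 and Ad1 and was not held at L2, where gcst-1 and dao-3 were higher, at Ad3 or at Ad7, where 6 members were higher. On OP50 the order of the means after folt-2 was gcst-1 (90.9), tyms-1 (70.9), dao-3 (57.1), gldc-1 (41.5), alh-3 (41.4) and dhfr-1 (41.1), where the last 3 differed by less than their spread over stages.

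By likeness over the 24 group means, among 9672 genes with a mean log2 CPM of at least 2, the genes nearest to folt-2 were C05C10.3, T05E12.6 and papl-1 (r = 0.91 each). Those nearest to mel-32 were mmaa-1 (0.91), F10E9.4 (0.90) and mtrr-1 (0.90). Those nearest to dao-3 were C23F12.4 (0.90), nlp-29 (0.86) and F02E9.5 (0.85), and those nearest to alh-3 were nas-37 (0.93), ccch-1 (0.92) and Y105E8B.9 (0.91). For dhfr-1 they were prp-18, F10E9.5 and mob-4 (r = 0.99 to 1.00), for tyms-1 F36D3.1, hmg-4 and C17E4.10 (0.99), and for folt-1 trap-3, inx-12 and iff-2 (0.97). For gldc-1 they were Y71H10B.1, ads-1 and act-4 (0.97), and for gcst-1 ctsa-3.1, aqp-10 and C05D9.3 (0.99). All these values describe groups that share stages and libraries.

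Of 46 markers in 9 lists, of germline, oocyte and eggshell, sperm, yolk, intestine, hypodermis and cuticle, muscle, neurons and embryo, 45 were tested. med-1, an embryonic gene, was too low, at 0.170 CPM or less. Across stages, ges-1, an intestinal esterase, was higher on MYb71 (0.39 ± 0.09, SE, adjusted p = 0.0059 by edgeR) and MYb65 (0.39 ± 0.09, adjusted p = 0.0083) and did not pass on Mix (0.26 ± 0.09, adjusted p = 0.15), and no other marker was called. The summed level of the 6 intestinal markers at L2, where folt-2 was called, was 2470 to 3830 CPM on the Ochrobactrum diets and 2002 to 2566 CPM on OP50. The 5 markers of oocytes and eggshell at L4 summed to 849 to 4762 CPM on the Ochrobactrum diets, against 1027, 903 and 3156 CPM on OP50, so libraries of L4 varied within each diet. The part of such differences in the results on the members was not tested.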

How the data were processed

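Whole-body RNA of N2 worms was converted to libraries with an unstranded TruSeq kit after poly(A) selection and sequenced as paired reads. The authors trimmed reads with Trimmomatic, aligned them with STAR (2.5.3a per the submitters' processing notes) to WormBase WS235 and counted them with HTSeq, and they deposited raw counts per gene. The treatment of reads with several alignments is not stated in the sources used here.

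Groups were taken from GEO's labels. The study states 3 replicates, and 2 for MYb237 at L2, and does not say which libraries these were. Replicate 3 was left out of each of the 11 groups with 4 libraries, a choice made with earlier results known, which left 71 of 82 libraries. For 2 MYb65 libraries of replicate 3 the labels conflict, with L2 and L3 in the titles and L3 and L4 as time points, and the time points were used. The profiles of these libraries were closest to L3 and to L4, as their time points say (r = 0.99 each). Counts were normalized by TMM, filtered by filterByExpr (minimum count 10, minimum total 15) and tested with glmQLFit and glmQLFTest, robust, of edgeR 4.0.16 (limma 3.58.1, R 4.3.3), with Benjamini-Hochberg adjustment over all genes tested. Across stages the model held stage and diet, and within stages the diets of that stage. DESeq2 1.42.0, RLE factors, no low-count filter, all 82 libraries, a replicate block and leaving out each library or number were alternatives. Mix has no number 4, and MYb71 has no number 3 among the libraries used. Leaving out a number thus removed libraries from some diets only, and a number need not mark the same run in each diet. Scripts were tested on simulated data. No column lacked a sample.

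Replicate numbers of compared diets were checked at each stage by the correlation of deviations from the group means. Every pair deviated together (r over 0.1) in 5 of 10 cases with 3 pairs, among them MYb71 and OP50 at L2 and at L3, so blocked values stand beside those results where they change a call.

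The members were given by name, and the members and the lists of pathway genes and markers were chosen with earlier results of these data known. All members are named, with other genes named where they were called or nearest in likeness. Total counts limit precision, and within stages p-values measure the spread between runs of exposure. Across stages the main model held no term for the run or replicate number. Its p-values treat libraries of different stages as independent, which was not tested. OP50 replicate 3 at L4 and in adults was left out as an alternative chosen after seeing the data.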

Additional observations from a re-analysis of the deposited data

Results flagged for a closer look

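In groups of 4 libraries, replicates left out of the main values included, the highest or lowest library was noted where its gap to the nearest other, as a share of the range of the group, was above Dixon's critical value at the 95% level. The shares noted were 0.906 to 0.963. This held for 7 of 99 groups tested, and chance gives about 1 in 20. dhfr-1 had 15.5 CPM in MYb71 L2 replicate 4, against 8.76 to 9.39 CPM in the other 3 libraries. folt-1 had 9.66 CPM in MYb71 L3 replicate 4, against 6.76 to 7.03 CPM. folt-2 had 17.8 CPM in MYb71 Ad1 replicate 2, against 1.83 to 2.75 CPM, and mel-32 had 516 CPM in MYb71 Ad7 replicate 4, against 467 to 470 CPM.

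The other 3 were libraries left out of the main values. dhfr-1 had 42.9 CPM in the library labelled OP50 L2 replicate 3, against 13.8 to 14.9 CPM in the others, and 36.9 CPM in that labelled OP50 L3 replicate 3, against 9.195 to 11.4 CPM. tyms-1 had 134 CPM in the library labelled OP50 L3 replicate 3, against 22.2 to 29.5 CPM. The profile of the L2 library was closest to Ad3 (r = 0.99, against 0.78 with L2) and that of the L3 library to Ad7 (r = 0.99, against 0.74 with L3), so these larval labels go against the profiles.

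In 2 cases a member lay above every OP50 library at one stage and below every one at another. The difference between the stages was not tested. Of all pairs of gene and stage, 4.09% to 5.68% lay wholly above OP50 and 5.83% to 6.95% wholly below. How many genes did both was not counted, so these cases are not read as a result. gldc-1 on MYb71 had a mean 1.69 times that of OP50 at L2 and 0.613 times at Ad1. gcst-1 on Mix had a mean 1.15 times that of OP50 at L2 and 0.927 times at Ad3.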

How the results depend on the processing

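The count of members called across stages, 3 on each diet, was 4 on MYb71 and 5 on Mix with all 82 libraries, and 4 on MYb71 with the replicate block, where alh-3 was added (0.37, adjusted p = 0.015 by edgeR). Without a whole replicate number it ranged from 1 to 4 on MYb71, from 0 to 3 on MYb65 and from 1 to 3 on Mix. With the block, a library alone in its stage and number does not enter the diet estimate. In the fits of the isolates these included OP50 replicate 3 at Ad1, Ad3 and Ad7. The added call of alh-3 is thus not separate from the one without these libraries. folt-2 and dao-3 kept their calls on MYb71 and MYb65 without each of 53 libraries in turn and on Mix without each of the 36 Mix and OP50 libraries, while the isolate libraries in the fit of Mix were not left out singly. Without a replicate number, dao-3 lost its call on all 3 diets (adjusted p up to 0.13, 0.12 and 0.14 by edgeR) and folt-2 on MYb65 (up to 0.070). Within stages, the 1 call per diet became 5 on MYb71, 5 on MYb65 and 3 on Mix with the replicate block, and 4, 2 and 3 with DESeq2. The block added folt-2 at L3 on MYb65 (−3.62, adjusted p = 0.015) and Mix (−3.29, 0.038), at Ad7 on MYb71 (−2.93, 0.0057) and MYb65 (−2.57, 0.0054), and mel-32 at L2 on MYb65 (−0.89, 0.020) and Mix (−0.80, 0.049), beside those given with the results, although numbers were not shown to pair these libraries. Same-numbered Mix and OP50 libraries at L3 deviated in opposite directions (r = −0.62 and −0.45). Those of MYb65 and OP50 deviated together at L2 (0.12 and 0.16) and Ad7 (0.11 and 0.29), with 2 pairs each. In the fits of the isolates, the block also took OP50 replicate 3 at Ad7 and MYb65 replicate 3 at L3 out of the diet estimate. Each was the only library of its number there. The count within stages became 2 on each diet without the OP50 libraries labelled replicate 3, in adults alone or with L4, and on MYb71 2 in the model of 4 diets and 2 with all libraries but OP50 L2 and L3 replicate 3. On MYb65 it became 0 with all 82 libraries, where folt-2 at L2 was −3.32 (adjusted p = 0.10). Left-out replicates gave 0 to 5 calls on MYb71, 0 to 2 on MYb65 and 1 to 4 on Mix. Stage steps called were 13 with OP50 alone, against 24, and the larval minus adult contrast gave 1 call on MYb65 with all 82 libraries. MYb71 against MYb65 and Mix against the isolates gave 0 calls under all alternatives run.

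Among uncalled members, gldc-1 turned to 0.061 on MYb71 and 0.094 on Mix, and gcst-1 to 0.069 on Mix, with all 82 libraries. With libraries or numbers left out, dhfr-1 ranged from −0.36 to 0.084 on MYb71, −0.37 to 0.017 on MYb65 and −0.38 to 0.058 on Mix. tyms-1 ranged from −0.15 to 0.069 on MYb71, −0.16 to 0.063 on MYb65 and −0.20 to 0.040 on Mix. gldc-1 ranged from −0.25 to 0.087 on MYb65 and −0.069 to 0.053 on Mix, and gcst-1 from −0.068 to 0.013 on Mix. The cause of these shifts was not tested. Depth did not leave any member untested, and the fewest counts were those of folt-2 (12) and folt-1 (39).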
